A study of Mus musculus with 9 samples.

Results

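The genes described here encode 9 enzymes or enzyme subunits that handle pyruvate and lactate or run the tricarboxylic acid (TCA) cycle. They are *Ldha*, *Ldhb*, *Pdha1*, *Dlat*, *Cs*, *Idh3a*, *Ogdh*, *Fh1* and *Mdh2*. They were chosen by gene symbol and not by their values, but with earlier results of these data known. Each of the 9 symbols was found once among the 55335 rows of the expression files, and all 9 passed the filter that left 13011 genes for testing. RNA came from pools of 8-cell embryos of ICR mice, fertilized in vitro from young females and cultured after siRNA had been injected into the zygotes. All embryos received siRNA: the control group a nontargeting one, the MFN1-KD group one against *Mfn1*, which encodes a mitochondrial fusion protein, and the H3.3-KD group one against *H3f3a* and *H3f3b*, both of which encode the histone variant H3.3. There were 3 libraries in each of 3 groups. The number of embryos per group is given as 5 to 10 in the sample labels and as 10 in the study's RNA-seq methods. The number behind each library is thus uncertain. The study calls the libraries of a group biological replicates. Whether they came from separate injections is not given in the sources used here, and p-values measure the spread between these libraries.

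Cleavage embryos of the mouse depend on pyruvate and lactate before they can live on glucose. Lactate dehydrogenase interconverts lactate and pyruvate and is a tetramer of A and B subunits. The B-rich enzyme dominates in the egg and is inherited by the embryo, and A-rich forms appear later. The pyruvate dehydrogenase complex turns pyruvate into acetyl-CoA inside mitochondria. Citrate synthase joins that acetyl group to oxaloacetate, after which isocitrate dehydrogenase, 2-oxoglutarate dehydrogenase, fumarase and malate dehydrogenase return the carbon to oxaloacetate while producing NADH.

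The start regions of 4 members are shown: *Ldha*, *Cs* and *Ogdh*, which changed in a knockdown, and *Ldhb*, the counterpart of *Ldha*. That of *Mdh2*, which also changed, is not shown. Each region shown is the 250 bases before the most upstream start that RefSeq gives on GRCm38.p6, written 5′ to 3′ on the gene's own strand. Capitals mark matches, on either strand, to CACGTG (the E-box), ACGTG (the core that hypoxia-inducible factors bind), GGGCGG (the GC box) and CCAAT.
Ldha, chr7:46845554-46845803, plus strand: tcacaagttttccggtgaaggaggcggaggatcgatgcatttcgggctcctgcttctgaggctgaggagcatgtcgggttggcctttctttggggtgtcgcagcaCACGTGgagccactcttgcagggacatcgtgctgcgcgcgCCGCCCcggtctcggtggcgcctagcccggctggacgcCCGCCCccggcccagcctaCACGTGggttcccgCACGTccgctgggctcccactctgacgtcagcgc
Cs, chr10:128337477-128337726, plus strand: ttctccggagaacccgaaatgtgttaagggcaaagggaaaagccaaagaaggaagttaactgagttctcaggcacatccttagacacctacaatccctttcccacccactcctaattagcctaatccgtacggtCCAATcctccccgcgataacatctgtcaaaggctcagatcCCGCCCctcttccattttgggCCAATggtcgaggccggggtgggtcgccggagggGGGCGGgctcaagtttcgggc
Ogdh, chr11:6291347-6291596, plus strand: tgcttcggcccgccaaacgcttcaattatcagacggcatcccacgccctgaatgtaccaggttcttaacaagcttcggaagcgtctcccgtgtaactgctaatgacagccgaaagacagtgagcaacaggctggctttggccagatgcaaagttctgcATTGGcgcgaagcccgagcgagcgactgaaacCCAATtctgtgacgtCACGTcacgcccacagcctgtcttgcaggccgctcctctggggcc
Ldhb, chr6:142507958-142508207, minus strand: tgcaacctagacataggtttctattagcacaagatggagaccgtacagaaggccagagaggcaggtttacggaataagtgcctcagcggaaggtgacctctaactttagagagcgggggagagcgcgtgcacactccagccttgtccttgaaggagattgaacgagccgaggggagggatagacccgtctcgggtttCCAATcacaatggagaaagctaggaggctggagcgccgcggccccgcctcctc

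The *Ldha* stretch was the only 1 of the 4 with an E-box. At least 1 copy of CACGTG is present in 6.02% of the 32851 promoters in the table, and the *Ldha* stretch held 2. ACGTG lies inside each of those copies on both strands, so its 5 matches in *Ldha* were 4 from the E-boxes and 1 of its own. That core was present in 16.6% of all promoters and had 1 match in *Ogdh*. GGGCGG, found in 32.7% of promoters, had 2 matches each in *Ldha* and *Cs*, and CCAAT, found in 33.8%, had 2 matches each in *Cs* and *Ogdh* and 1 in *Ldhb*. TATAAA, found in 12.4% of promoters, matched none of the 8 members present in the table. The *Ldha* stretch was 67.2% G or C with 25 CpG dinucleotides, and the *Ldhb* stretch 56.4% with 14, against medians of 52.4% and 6 over all promoters. RefSeq gives 2 starts for *Ldha* and 6 for *Ogdh*. The GENCODE annotation begins *Ldha* further upstream, at chr7:46841475, so the stretch shown lies inside that gene. The bases before the GENCODE start were not searched. The 250 bases before the second *Ldha* start held no match to any of these motifs, and 3 of the 6 *Ogdh* windows held 1 E-box. The *Mdh2* window held 1 match to GGGCGG and none to the other motifs. *Idh3a* is the member without an entry. These letters are matches only and are not shown to be used by any factor.

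Levels are given as FPKM, that is, fragments scaled to the length of the transcript and the size of the library. The lengths used and any bias between genes from oligo-dT priming and PCR are unknown. Orders of genes given below are thus orders of FPKM and may differ from those of transcript number. The knockdowns were seen in their targets. *Mfn1* was at 51.57, 22.55 and 23.77 FPKM in control, at 9.54, 4.40 and 1.15 in MFN1-KD, against 100.24, 89.52 and 40.02 in H3.3-KD, and the change in MFN1-KD was -2.66 on the log2 scale (adjusted p = 0.0431). That call was lost without any 1 control library, replicate 2 or 3 of MFN1-KD or replicate 1 or 2 of H3.3-KD, with an adjusted p up to 0.152. The difference of *Mfn1* in H3.3-KD from control did not pass (1.21, adjusted p = 0.143). H3.3-KD libraries had 149 ± 28.3 FPKM of *H3f3a* (SD, n = 3) against 1932 ± 293 in control, and 246 ± 70.3 of *H3f3b* against 2988 ± 154. In MFN1-KD these were 1336 ± 42.9 and 2787 ± 80.2 FPKM. All MFN1-KD libraries lay below all control libraries for both genes, but neither passed (-0.52, adjusted p = 0.153, and -0.10, adjusted p = 0.821, limma). Genes above 0 FPKM numbered 21643 to 22507 in control, 23655 to 24820 in H3.3-KD and 15577 to 20842 in MFN1-KD, in which replicate 3 was lowest. Read depth is unknown, as no counts were used. Of 8 markers of cleavage and morula embryos, 7 averaged 1 FPKM or more. Their sum was 10817 to 14037 in control, 16830 to 20495 in MFN1-KD, but 6521 to 8385 in H3.3-KD, mostly from the maternally supplied *Dppa3*. *Pou5f1*, which the embryonic genome switches on, was 5.10 to 8.90 FPKM in control, 0.300 to 3.68 in MFN1-KD but 63.06 to 392.19 in H3.3-KD, and *Cdx2*, a trophectoderm gene, was at most 0.0900 in control and 0.570 to 6.24 in H3.3-KD. Of the 8 markers, *Pou5f1*, *Cdx2*, *Klf5* and *Tead4* were higher than control in H3.3-KD without overlap and *Dppa3* was lower, while *Sox2*, *Nanog* and *Zfp42* overlapped. In MFN1-KD *Klf5* and *Dppa3* were higher than control without overlap, *Pou5f1* and *Zfp42* were lower, and the other 4 overlapped. The part of these differences in the results below was not tested. The 5 oocyte and egg coat genes summed to 34.1 to 43.5 FPKM in control, 24.4 to 44.2 in MFN1-KD and 26.8 to 46.7 in H3.3-KD. Of 9 cumulus and granulosa genes only *Amhr2* averaged 1 FPKM or more and the defining *Fshr* and *Cyp11a1* were listed at 0 throughout, with sums of 16.1 to 29.8, 10.3 to 19.9 and 38.2 to 67.2 in the same order. None of 5 sperm genes reached a mean of 1 FPKM, and their sums were 1.68 to 2.93, 0 to 0.780 and 0.0900 to 0.890.

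**Figure D1:**
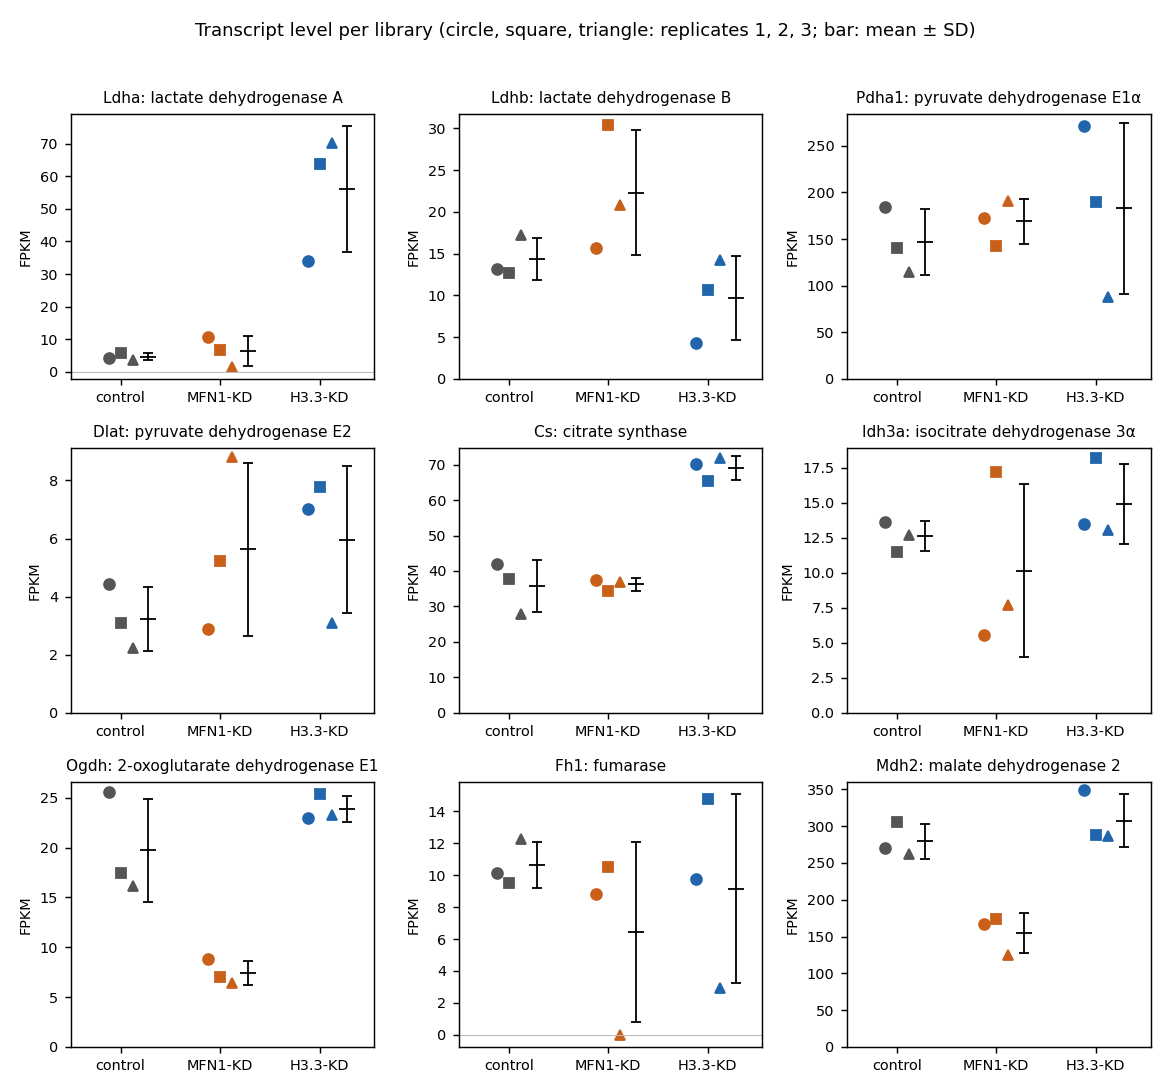
FPKM (linear axes from 0) of the 9 genes in the 9 libraries, with the replicates as circle, square and triangle and the mean ± SD of each group beside them. *Ldha* and *Cs* lay above control in all 3 H3.3-KD libraries, and *Ogdh* and *Mdh2* lay below control in all 3 MFN1-KD libraries.

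In control embryos *Mdh2*, *Pdha1* and *Cs* had higher FPKM than either *Ldha* or *Ldhb*. *Mdh2* was highest at 279 ± 23.5 FPKM (SD, n = 3), followed by *Pdha1* at 147 ± 35.4 and *Cs* at 35.9 ± 7.29, and the libraries of these 3 did not overlap with their neighbours in the order. *Ogdh* (19.7 ± 5.15), *Ldhb* (14.4 ± 2.48), *Idh3a* (12.6 ± 1.07) and *Fh1* (10.6 ± 1.45) came next, and neighbours among these 4 overlapped. *Ldha* at 4.59 ± 1.15 and *Dlat* at 3.24 ± 1.11 were lowest and overlapped with each other. In MFN1-KD the top 2 changed places, with *Pdha1* and *Mdh2* overlapping. In H3.3-KD *Ldha* stood in the fourth place and not the eighth, and its libraries overlapped with those of *Cs* and lay above those of *Ogdh*. *Pdha1* and *Dlat* encode subunits of 1 complex, and the FPKM of *Pdha1* exceeded that of *Dlat* in every library.

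*Ldha*, the subunit that favours the making of lactate, rose in H3.3-KD. It was at 4.15, 5.89 and 3.73 FPKM in control, at 10.7, 6.79 and 1.51 in MFN1-KD, and at 33.93, 63.87 and 70.39 after H3.3 knockdown. The lowest H3.3-KD library was above every library of the other groups, and the mean was 12.2 times that of control. The fitted log2 fold change was 3.3 (95% interval 2.13 to 4.47, adjusted p = 0.00138). It was past the threshold in all 17 alternatives tried, with adjusted p from 1.4e-04 to 0.00970. In MFN1-KD the difference from control was 0.15 (interval -1.02 to 1.32, adjusted p = 0.905), and the MFN1-KD libraries lay on both sides of the control libraries. The gene lies at chr7:46841475-46855627 (ENSMUSG00000063229), and the copies annotated as *Ldha-ps*, *Ldha-ps2* and *Ldha-ps3* reached at most 0.270, 0.0400 and 0 FPKM.

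*Ldhb*, the subunit of the egg's enzyme, passed the test against control in neither knockdown. It was at 13.19, 12.67 and 17.21 FPKM in control, at 15.65, 30.44 and 20.85 in MFN1-KD, and at 4.29, 10.64 and 14.25 after H3.3 knockdown. The H3.3-KD and MFN1-KD libraries each overlapped with control. Against control the log2 difference was -0.64 in H3.3-KD (interval -1.55 to 0.28, adjusted p = 0.268) and 0.57 in MFN1-KD (interval -0.35 to 1.48, adjusted p = 0.443). Between the knockdowns *Ldhb* was lower in H3.3-KD by 1.20 on the log2 scale (adjusted p = 0.0404). That call was lost when control replicate 1, 2 or 3 was left out (adjusted p = 0.0591, 0.0597 and 0.0576). It was also lost with MFN1-KD replicate 2 or 3 left out (0.117 and 0.0619) or with H3.3-KD replicate 1 or 2 left out (0.137 and 0.0645). It was not past the threshold with no filter on low values (0.102) or with only the 6 libraries compared (0.0891), and held in 8 of 17 alternatives. *Ldhb* lies on the minus strand at chr6:142490249-142507957. *Ldhc*, the subunit known from sperm, was at 3.27 ± 1.66 FPKM in control, 4.68 ± 1.81 in MFN1-KD and 3.42 ± 0.992 after H3.3 knockdown, and passed the test in neither knockdown.

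Within a library the ratio of both subunits does not depend on how the library was scaled. *Ldha* made up 23.9%, 31.7% and 17.8% of the summed *Ldha* and *Ldhb* FPKM in control, 40.6%, 18.2% and 6.75% in MFN1-KD, and 88.8%, 85.7% and 83.2% after H3.3 knockdown. *Ldhb* thus had the higher FPKM in all 6 control and MFN1-KD libraries and *Ldha* in all 3 H3.3-KD libraries. The mean log2 ratio of *Ldhb* to *Ldha* was 1.66 ± 0.55 in control, 2.17 ± 1.62 in MFN1-KD and -2.62 ± 0.34 after H3.3 knockdown (SD, n = 3 each). The difference of H3.3-KD from control was -4.28, with a two-sided exact permutation p of 0.10 (0.15 adjusted over the 3 pairs of groups), the smallest that 3 libraries against 3 can give. The H3.3-KD difference from MFN1-KD was -4.79 with the same exact p, and MFN1-KD differed from control by 0.51 (exact permutation p = 0.80). This last value was -0.30 without MFN1-KD replicate 3, where *Ldha* was lowest, 1.32 without MFN1-KD replicate 1, 0.23 without control replicate 2 and 0.78 without control replicate 3. Their summed level was 17.3 to 20.9 FPKM in control, 22.4 to 37.2 in MFN1-KD and 38.2 to 84.6 in H3.3-KD, and unlike the ratio it depends on how the libraries are scaled.

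**Figure D2:**
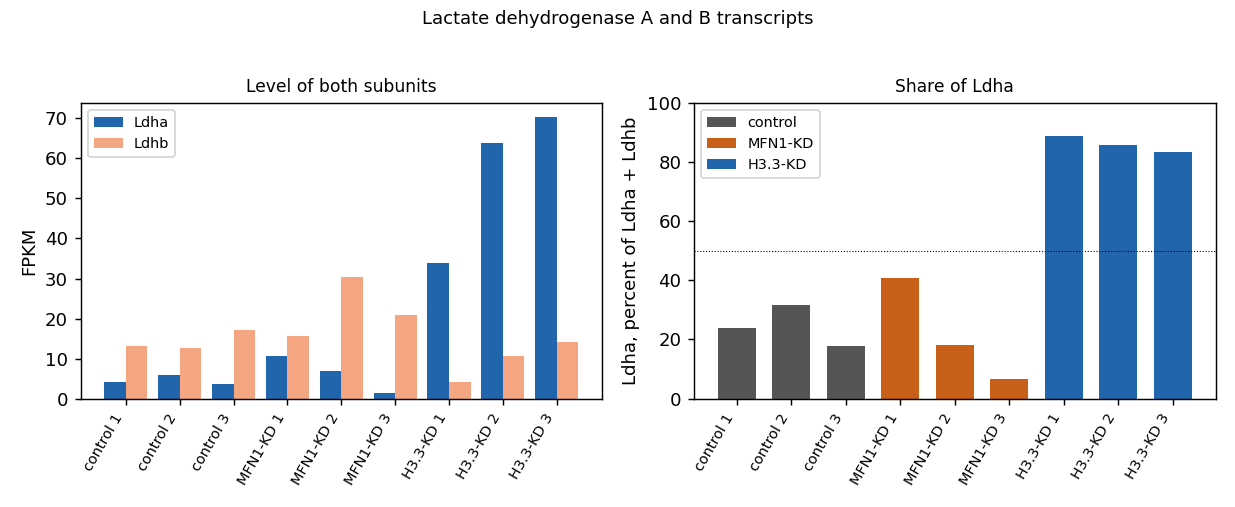
Left, FPKM of *Ldha* and *Ldhb* in each of the 9 libraries. Right, *Ldha* as percent of *Ldha* plus *Ldhb*, coloured by group, with a dotted line at equal shares: the H3.3-KD libraries stood at 83.2% to 88.8% and the other libraries at 6.75% to 40.6%.

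Neither subunit gene of the pyruvate dehydrogenase complex among the 9 genes passed the test in any comparison. *Pdha1*, an X-linked gene (chrX:160122209-160138413) for the catalytic E1 alpha subunit, was at 184.8, 140.74 and 114.88 FPKM in control, 173.07, 142.31 and 191.06 in MFN1-KD, and 271.6, 189.47 and 88.01 after H3.3 knockdown. The H3.3-KD libraries reached both above and below all the others. The log2 difference from control was 0.22 in MFN1-KD (interval -0.60 to 1.04) and 0.20 in H3.3-KD (interval -0.62 to 1.02). *Dlat*, which encodes the acetyl-transferring E2 subunit (chr9:50634633-50659780), was at 4.42, 3.08 and 2.22 FPKM in control, 2.88, 5.23 and 8.79 in MFN1-KD, and 7.01, 7.79 and 3.10 after H3.3 knockdown. Each knockdown overlapped with control, with log2 differences of 0.58 (interval -0.40 to 1.56, adjusted p = 0.467) and 0.67 (interval -0.31 to 1.65, adjusted p = 0.277).

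*Cs*, which encodes the enzyme of the cycle's entry step, rose in H3.3-KD. It was at 42.1, 37.62 and 27.84 FPKM in control, 37.52, 34.25 and 36.9 in MFN1-KD, and 70.09, 65.42 and 71.92 after H3.3 knockdown. The 3 H3.3-KD libraries were close to each other and above the 6 others, at 1.93 times the control mean. The log2 fold change was 0.95 (interval 0.44 to 1.45, adjusted p = 0.0106) in H3.3-KD and 0.03 after *Mfn1* knockdown (interval -0.47 to 0.54, adjusted p = 0.957). The log2 fold changes of all genes tested in H3.3-KD had a median of 0.26. With median-ratio or upper-quartile scaling, which bring that median to -0.00 and -0.07, the *Cs* difference was 0.60 (adjusted p = 0.0722) and 0.52 (adjusted p = 0.0968), and without control replicate 3 its adjusted p was 0.0509. *Cs* lies at chr10:128337734-128362479.

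*Idh3a* and *Fh1* passed the test in neither knockdown. *Idh3a*, the catalytic subunit of the NAD-dependent isocitrate dehydrogenase (chr9:54586334-54604661), was at 13.6, 11.47 and 12.72 FPKM in control, 5.57, 17.18 and 7.68 in MFN1-KD, and 13.48, 18.2 and 13.05 after H3.3 knockdown. MFN1-KD replicate 2 was above control and the other 2 MFN1-KD libraries below it, and the log2 difference was -0.42 (interval -1.26 to 0.41) in MFN1-KD and 0.22 (interval -0.62 to 1.05) in H3.3-KD. *Fh1*, which encodes fumarase (chr1:175600374-175625635), was at 10.14, 9.49 and 12.27 FPKM in control, 8.82, 10.5 and listed at 0 in MFN1-KD, and 9.78, 14.76 and 2.93 after H3.3 knockdown. The third library of each knockdown was its lowest. The fitted log2 difference in MFN1-KD, -1.26 (interval -3.15 to 0.63), rested on replicate 3 and was -0.12 without it. In H3.3-KD it was -0.41 (interval -2.30 to 1.49), and 0.17 without H3.3-KD replicate 3.

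*Ogdh* and *Mdh2* fell in MFN1-KD. *Ogdh* encodes the E1 subunit of 2-oxoglutarate dehydrogenase (chr11:6291633-6356642), a rate-controlling enzyme of the cycle, and was at 25.63, 17.41 and 16.15 FPKM in control, 8.77, 7.04 and 6.38 in MFN1-KD, and 22.93, 25.4 and 23.31 after H3.3 knockdown. All MFN1-KD libraries were below all others, and their mean was 37.5% of that of control. The log2 fold change was -1.29 (interval -1.89 to -0.68, adjusted p = 0.0404) in MFN1-KD and 0.29 (interval -0.32 to 0.90, adjusted p = 0.455) in H3.3-KD. *Mdh2*, the mitochondrial malate dehydrogenase (chr5:135778480-135790398), which closes the cycle and serves the malate-aspartate shuttle, was at 269.91, 306.1 and 262.16 FPKM in control, 166.58, 173.37 and 124.34 in MFN1-KD, and 349.01, 287.41 and 286.07 after H3.3 knockdown. The highest MFN1-KD library lay below the lowest control library. The log2 fold change was -0.86 (interval -1.31 to -0.41, adjusted p = 0.0479) in MFN1-KD and 0.13 (interval -0.31 to 0.58, adjusted p = 0.648) in H3.3-KD.

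Both falls were close to the threshold and depended on single libraries and on the processing. *Ogdh* was called in 7 and *Mdh2* in 3 of 17 alternatives. Their adjusted p was 0.130 and 0.149 with no filter on low values, 0.0981 and 0.101 with only the 6 libraries compared, and 0.0584 and 0.0681 with the replicate number as a block. That of *Mdh2* was also 0.0510 with median-ratio scaling, 0.0537 with a pseudocount of 0.1 and 0.154 with GC and length trends removed. The adjusted p of *Ogdh* was 0.0854, 0.149 and 0.148 without control replicate 1, 2 and 3, 0.0503 and 0.0670 with MFN1-KD replicate 2 and 3 left out, and 0.0673 and 0.0746 once H3.3-KD replicate 1 and 2 were, which enter through the shared estimate of the spread. That of *Mdh2* was 0.0915, 0.200 and 0.163 without control replicate 1, 2 and 3, 0.0633 and 0.0818 with MFN1-KD replicate 1 and 3 left out, and 0.0736, 0.0836 and 0.0541 for replicates 1, 2 and 3 of H3.3-KD. The direction was kept in every alternative, with log2 values of -1.41 to -1.09 for *Ogdh* and -0.95 to -0.49 for *Mdh2*. MFN1-KD replicate 3, which had the fewest genes above 0 FPKM, was also the lowest library for both genes, and without it the fold changes were -1.20 and -0.71. In pooled embryos, fewer cells with a transcript and less transcript per cell cannot be told apart.

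In MFN1-KD, 2 of the 9 genes were lower and 0 higher at the adjusted p, where 2.20% and 1.15% of all genes tested were. At the threshold of the study's own test, more than 2-fold with an unadjusted p under 0.05, *Ogdh* was lower and none was higher, against 9.05% and 5.02% of all genes. *Ogdh* and *Mdh2* were also the members whose groups did not overlap, all lower, where 16.8% of all genes were lower and 11.4% higher without overlap. In H3.3-KD, 2 of 9 were higher at the adjusted p and 0 were lower, against 21.8% and 9.12% of all genes, so that 22.2% of the members were called beside 31.0% of all genes. *Ldha* was the member past the study's threshold, which 23.9% of all genes passed upwards and 9.39% downwards. *Ldha* and *Cs* were higher without overlap, as were 34.5% of all genes, and no member was lower without overlap, as were 18.9%. The fold changes of the 9 genes had a median log2 of 0.03 for MFN1-KD, beside -0.08 over all genes, and of 0.22 for H3.3-KD, beside 0.26.

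**Figure D3:**
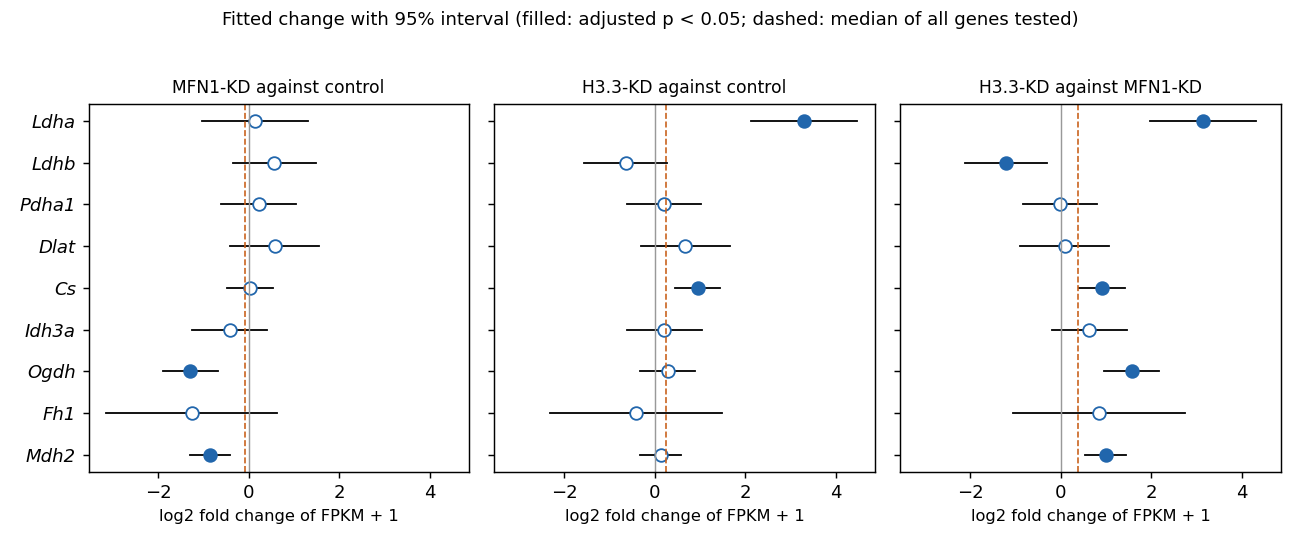
Log2 fold change of FPKM + 1 with its 95% interval (limma) for the 9 genes in 3 comparisons. Filled points passed an adjusted p of 0.05, and the dashed line is the median of all 13011 genes: *Ldha* stood at 3.3 in H3.3-KD and *Ogdh* at -1.29 in MFN1-KD.

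The knockdowns were then compared with each other, which tests whether their levels differ. *Ldha*, *Cs*, *Ogdh* and *Mdh2* were higher in H3.3-KD than in MFN1-KD, and *Ldhb* was lower, where 27.6% of all genes were higher and 11.0% lower. The median difference over all genes was 0.39, and 0.07 and 0.01 with median-ratio and upper-quartile scaling. The log2 differences were 3.16 for *Ldha* (adjusted p = 0.00121), 0.91 for *Cs* (0.00995), 1.58 for *Ogdh* (0.00148) and 0.99 for *Mdh2* (0.00341). *Ldha* and *Ogdh* passed in all 17 alternatives, *Mdh2* in 16 and *Cs* in 15. The exceptions were upper-quartile scaling for *Mdh2* (adjusted p = 0.0589) and both scalings for *Cs* (0.108 with median-ratio and 0.144 with upper-quartile scaling). The intervals of *Pdha1* (-0.84 to 0.80), *Dlat* (-0.88 to 1.08), *Idh3a* (-0.20 to 1.47) and *Fh1* (-1.04 to 2.75) included 0. *Idh3a* passed when MFN1-KD replicate 2 was left out (1.06, adjusted p = 0.0230).

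The wider pathway was read from a list of 57 genes, including the 9, of which 56 were in the files and 44 were tested. In MFN1-KD 0 of the 44 rose and 4 fell at the adjusted p, that is 9.09% called, against 3.35% of all genes (1.15% higher and 2.20% lower). Beside *Ogdh* and *Mdh2* these were *Pdhb*, the E1 beta partner of *Pdha1*, and *Sdhd*, a membrane anchor of succinate dehydrogenase. At the study's threshold 4 of the 44 were lower and 0 higher, where 9.05% and 5.02% of all genes were. These 4 were *Ogdh*, *Sdhd* and, named after their values were seen, *Sdhc* and *Slc25a11*, so that *Pdhb* and *Mdh2* were not among them. *Sdhc* had a mean of 16.9 FPKM in control and 4.65 in MFN1-KD (limma adjusted p = 0.0706). For *Slc25a11* the means were 9.23 and 2.63 (0.0934). Without overlap of the groups 11 of the 44 were lower and 1 higher, where 16.8% and 11.4% of all genes were. *Pdhb* was at 334.21, 327.89 and 334.17 FPKM in control and 186.82, 190.99 and 132.5 in MFN1-KD (log2 fold change -0.98, adjusted p = 0.0409). *Sdhd* was at 31.88, 24.51 and 45.06 FPKM in control and 9.99, 11.52 and 3.19 in MFN1-KD (log2 fold change -2.02, adjusted p = 0.0479). The libraries of both genes did not overlap between these groups. Thus *Pdhb* transcript was at 51.2% of control in MFN1-KD, and that of its partner *Pdha1* was at 115%, a difference that did not pass. In H3.3-KD *Pdhb* was at 258.93, 230.23 and 190.86 FPKM, also below every control library (adjusted p = 0.0661). *Sdhd* was at 25.66, 22.5 and 10.59 FPKM there and overlapped with control (adjusted p = 0.226). Neither gene passed between the knockdowns (adjusted p = 0.138 and 0.0647). With 1 library left out the adjusted p in MFN1-KD against control ran from 0.0403 to 0.161 for *Pdhb* and from 0.0408 to 0.196 for *Sdhd*. Each call held without 2 of the 9 libraries, H3.3-KD replicate 3 and MFN1-KD replicate 2, and was lost without any of the others. Over all 17 alternatives *Pdhb* was called in 7 and *Sdhd* in 5. Of the 15 TCA cycle genes tested, *Ogdh*, *Mdh2* and *Sdhd* among them, 12 had a log2 fold change below 0 in MFN1-KD and 3 above. Over all 13011 genes tested 7156 (55%) were below 0 and 5790 above, and 48.7% were below 0 without MFN1-KD replicate 3. The median was -0.42 over the TCA cycle genes, -0.50 over the 5 malate-aspartate shuttle genes and -0.08 over all genes.

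In H3.3-KD 7 of the 44 pathway genes rose and 4 fell, that is 25.0% called, against 31.0% of all genes (21.8% higher and 9.12% lower). With median-ratio scaling 4 rose and 7 fell, and with upper-quartile scaling 4 rose and 8 fell. Over all genes the rises made up 70.5% of the calls as deposited, 53.9% with median-ratio and 49.0% with upper-quartile scaling. Beside *Ldha* and *Cs*, the rises with the smallest p were in *Dlst*, *Got2* and *Pdk3*. *Dlst*, the E2 partner of *Ogdh*, went from 9.42, 6.13 and 6.30 FPKM in control to 28.61, 31.03 and 19.21 (log2 fold change 1.71, adjusted p = 0.00372). It passed in all 17 alternatives, while *Ogdh* itself did not pass in H3.3-KD. *Got2*, the mitochondrial aspartate aminotransferase of the shuttle, went from 6.62, 4.08 and 2.60 to 16.55, 19.52 and 19.58 FPKM (1.91, adjusted p = 0.0215). *Pdk3*, a kinase that inactivates pyruvate dehydrogenase, went from 2.39, 1.55 and 3.13 to 4.60, 8.56 and 18.2 FPKM (1.62, adjusted p = 0.0249). All 3 genes had every H3.3-KD library above every control library. *Got2* lost its call without replicate 2 or 3 of control or of H3.3-KD (adjusted p up to 0.0919), and *Pdk3* without any control library or H3.3-KD replicate 2 or 3 (up to 0.0970). *Got2* was called in 11 of 17 alternatives and *Pdk3* in 8 of 16. The remaining rises, named after their values were seen, were in *Emb* (a chaperone of lactate and pyruvate transporters) and *Slc25a12* (an aspartate-glutamate carrier). Their log2 fold changes were 3.61 and 0.86, and both calls were lost when any 1 control library or H3.3-KD replicate 2 was left out. That of *Emb* was also lost without H3.3-KD replicate 3 and that of *Slc25a12* without H3.3-KD replicate 1, with adjusted p up to 0.0717 and 0.129. *Emb* was at 6.47, 11.01 and 9.16 FPKM in control and 57.85, 142.33 and 194.77 in H3.3-KD. In MFN1-KD it was at 131.9, 4.52 and 7.26, so that 1 library there was also high. Without that MFN1-KD replicate 1 the adjusted p of *Emb* in H3.3-KD against control was 6.8e-04 (limma).

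The 4 falls in H3.3-KD, of 44 genes, stand beside 9.12% of all genes called lower. They were in both genes of the mitochondrial pyruvate carrier and in 2 genes between 2-oxoglutarate and fumarate. *Dlst*, of that same stretch, was called higher. *Mpc1* went from 1182.68, 1181.55 and 1297 FPKM in control to 736.68, 674.22 and 801.35 (log2 fold change -0.73, adjusted p = 0.00748). *Mpc2* went from 728.79, 873.22 and 921.15 to 605.73, 458.07 and 433.22 (-0.76, adjusted p = 0.0125). The carrier transcripts were above every one of the 9 enzymes in control and stayed above them in H3.3-KD, and neither overlapped with control. *Mpc1* kept its call with any library left out, and *Mpc2* lost it without control replicate 2 or 3 (adjusted p = 0.0548 and 0.0583). *Suclg1*, a succinate-CoA ligase subunit, fell from 57.1 ± 5.48 to 24.7 ± 8.70 FPKM (-1.24, adjusted p = 0.0215), and *Sdhb*, the iron-sulphur subunit of succinate dehydrogenase, from 60.6 ± 4.31 to 24.6 ± 14.7 FPKM (-1.46, adjusted p = 0.0350). *Suclg1* lost its call when replicate 2 or 3 of control or replicate 3 of H3.3-KD was left out (adjusted p up to 0.0816), and *Sdhb* without any control library or H3.3-KD replicate 2 or 3 (up to 0.104). Over all 17 alternatives *Mpc1* was called in 16 (not with GC and length trends removed, where its log2 fold change was -0.33), *Mpc2* in 15, *Suclg1* in 13 and *Sdhb* in 11. In MFN1-KD *Mpc1* was at 835.23, 923.48 and 744.74 FPKM, below all control libraries, with an adjusted p of 0.0861. Both comparisons use the same control libraries, so their values stand side by side and are not independent.

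The genes of the other roles with the highest FPKM in control gave no call. *Idh1*, the cytosolic isocitrate dehydrogenase, was at 45.4 ± 4.30 FPKM in control, 43.7 ± 5.77 in MFN1-KD and 37.1 ± 21.3 after H3.3 knockdown. *Got1*, the cytosolic aspartate aminotransferase, was at 46.4 ± 9.64, 28.9 ± 10.4 and 47.5 ± 15.4 FPKM in the same order. *Me1*, the cytosolic malic enzyme, was at 7.82 ± 1.84, 5.74 ± 2.82 and 7.52 ± 4.88 FPKM. For all 3 genes the libraries of each knockdown overlapped with those of control.

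**Figure D4:**
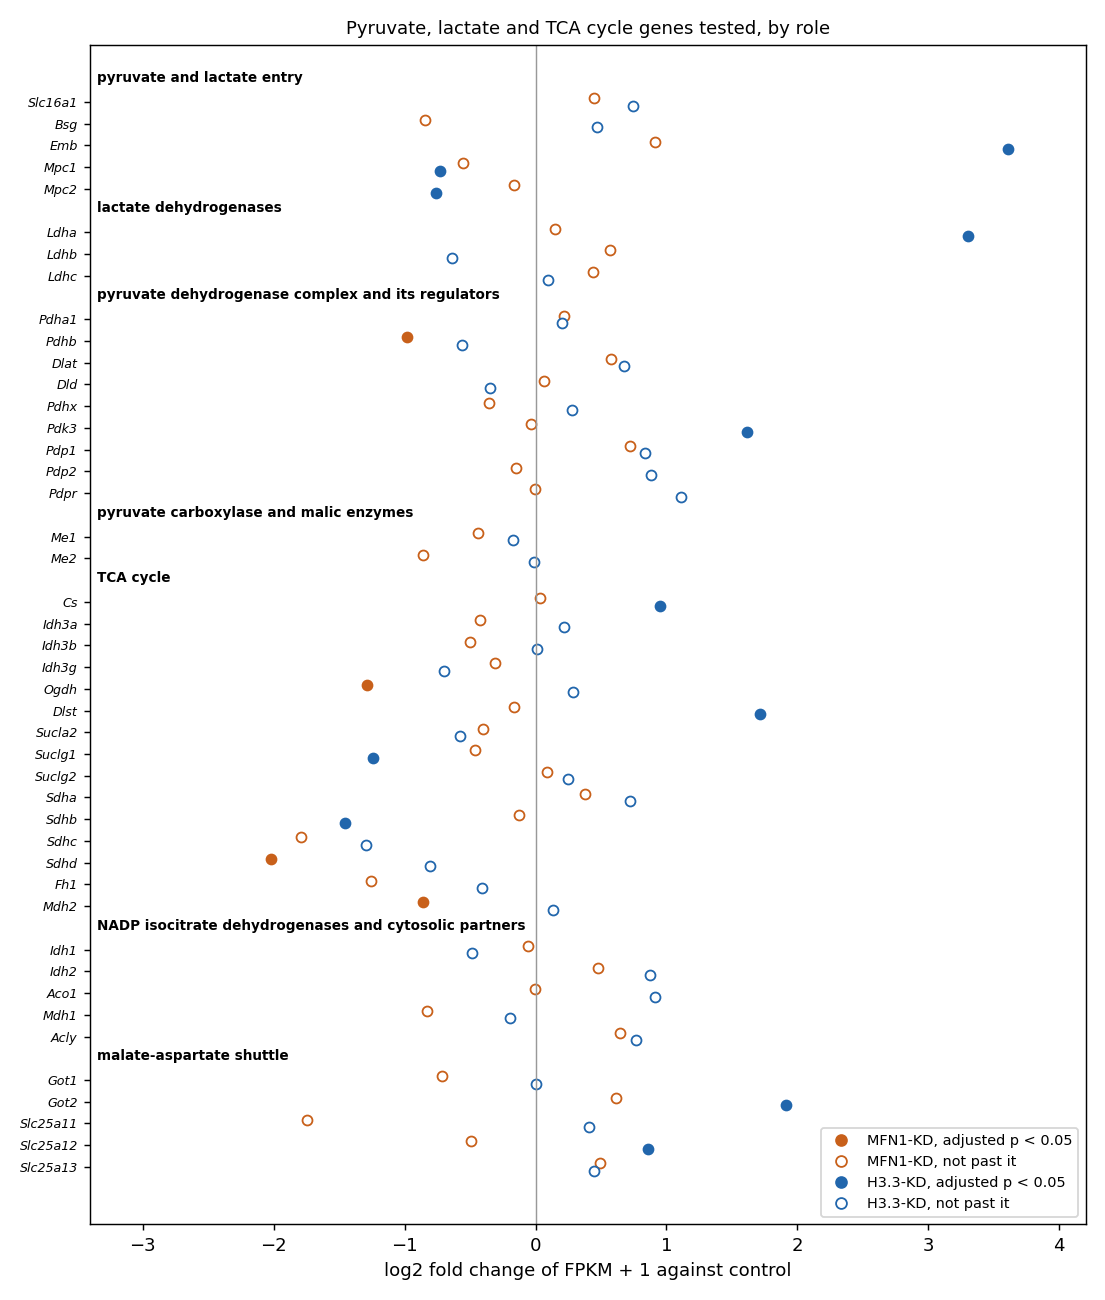
Log2 fold change of FPKM + 1 against control for the 44 pathway genes tested, grouped by role, with MFN1-KD in orange and H3.3-KD in blue and filled points past an adjusted p of 0.05. All 4 filled MFN1-KD points lie below 0, and the H3.3-KD points hold 7 filled above 0 and 4 below.

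The genes whose pattern was most like that of each member were found by Pearson's r of log2(FPKM + 1) over the 9 libraries, among the 5933 genes that averaged 10 FPKM or more. It is given as a description: the points share their library and fall into 3 groups. *Cs* had the closest neighbours, *Cdt1* (0.994) and *Tnip1* (0.989). *Ldha* was nearest to *Rbm38* (0.985) and *Rab10os* (0.982), *Mdh2* to *Bnip3l-ps* and *Pex16* (0.988 each), and *Ogdh* to *Rpa2* and *Zc3hc1* (0.967 each). *Fh1* was nearest to *Htatip2* (0.977) and *Gstp2* (0.976), and *Ldhb* to *Platr25* (0.938) and *Arhgap29* (0.932). *Pdha1* was nearest to *Sms* (0.937) and *Tdrp* (0.877), *Dlat* to *Eif2b5* (0.930) and *Gnl2* (0.926), and *Idh3a* to *Snord55* (0.922) and *Nudt21* (0.920). No other member was among the 2 nearest genes of any member. *Dlat* and *Fh1* averaged below 10 FPKM and so could not be listed.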

How the data were processed

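Libraries of 8-cell embryo pools were made by Smart-Seq2 with oligo-dT priming and PCR amplification and sequenced in pairs. The authors used cutadapt 1.16 for trimming and STAR for alignment to mm10, and deposited FPKM with 2 decimals. The program that gave FPKM, its annotation and its strand setting are not given in the sources used here, so reads of overlapping genes on opposite strands may not be separated. Low FPKM values showed no common step from which read numbers could be recovered, so depth is unknown and no interval from counts is given.

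Genes averaging 1 FPKM or more in the 9 libraries were tested on log2(FPKM + 1), a scale that understates changes of low genes. The study tested counts with Deseq2. Here limma 3.58.1 (trend and robust options, R 4.3.3) was fitted to all libraries with a term per group and no covariate, and p-values were adjusted by Benjamini-Hochberg over all 13011 genes. A gene was called at an adjusted p under 0.05. The fit was tested on simulated data. The *Ldhb* to *Ldha* ratio was compared by two-sided exact permutation tests in scipy 1.17.1. Tables were made with pandas 2.3.3 and numpy 2.4.6 in Python 3.11.15, and figures with matplotlib 3.10.9. Positions come from GENCODE M21 on GRCm38 (53543 symbols matched) and start regions from RefSeq.

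The members and the gene lists were chosen with earlier results of these data known, so nothing here is independent support for a pattern seen before. Named genes are all members, the pathway genes called (at most the 5 with the smallest p in each direction and knockdown), the gene of each role highest in control, the targets and the 2 genes most like each member. A few further pathway genes are marked as named after their values were seen. Alternatives were other scalings, a pseudocount of 0.1, no filter or a mean of at least 10 FPKM, a fit to the 6 libraries of a comparison alone, a term for the replicate number, each library left out, and removal of trends over GC content and length (splines with 5 degrees of freedom, 98.1% of genes with both). A gene of the pathway is not reported here.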

Additional observations from a re-analysis of the deposited data

How the results depend on the processing

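The number of members called in MFN1-KD was 2, and 1 with median-ratio scaling, with a pseudocount of 0.1 and with GC and length trends removed. It was 0 with no filter, with only the 6 libraries compared and with the replicate block, and 0 to 1 with each library left out. In H3.3-KD it was 2, and 1 with either scaling, with 1 to 2 when libraries were left out. Between the knockdowns it was 5, and 3 with upper-quartile scaling. Pathway genes called in MFN1-KD were 4, and 2 with a pseudocount of 0.1 or the trends removed, 0 with no filter, 6 libraries or the replicate block, and 0 to 3 with a library left out. In H3.3-KD they were 11, and 6 with no filter, 17 with only the 6 libraries and 3 to 18 with a library left out (18 without MFN1-KD replicate 3, 3 without control replicate 3, 4 without control replicate 2, and 6 and 7 without H3.3-KD replicate 2 and 3). All genes called in MFN1-KD were 436, and 2 with no filter, 657 at a mean of at least 10 FPKM, 264 with trends removed, 31 with the replicate block and 0 with only the 6 libraries (limma, 2724 at an unadjusted p under 0.05), and 0 to 665 with a library left out. All genes called in H3.3-KD were 4028, and 2590 at a mean of at least 10 FPKM and 2432 to 5070 with a library left out. Between the knockdowns 5028 fell to 2980 at a mean of at least 10 FPKM, where fewer genes were tested. Except where stated, the cause of these changes was not tested.

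Pairing of the libraries by replicate number was weak at most. Correlations of deviations were -0.05 to 0.16 between same-numbered libraries and -0.12 to 0.07 between the others. The highest, 0.16 and 0.14, were both between same-numbered libraries. With the block, members called were 0, 2 and 5 in the 3 comparisons.

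Over all alternatives and comparisons, the members' fold changes kept their sign and call in 389 fits. In 39 fits a call was lost and in 1 it was gained. The sign changed in 24 fits, none of them called. In MFN1-KD these were *Ldha* without MFN1-KD replicate 1 or 2 (-0.32 and -0.03, with 0.79 without MFN1-KD replicate 3) and *Cs* without control replicate 3 (-0.13) or with trends removed (-0.03). In H3.3-KD they were, with median-ratio and upper-quartile scaling, *Pdha1* (-0.15 and -0.23), *Idh3a* (-0.11 and -0.19), *Ogdh* (-0.04 and -0.12, and -0.19 with trends removed) and *Mdh2* (-0.22 and -0.30), with *Pdha1* also at -0.16 to 0.65 and *Fh1* at -0.83 to 0.17 with a library left out. Between the knockdowns they were *Pdha1* (-0.37 to 0.43 with a library left out, above 0 at 0.01, 0.08 and 0.43), *Dlat* with the scalings (-0.26 and -0.31) and without a library (-0.24 to 0.44, below 0 also at -0.04 and -0.11), and *Fh1* (-0.28 without MFN1-KD replicate 3, otherwise up to 1.48). The MFN1-KD difference in the log2 ratio of *Ldhb* to *Ldha* ran from -0.30 to 1.32 with a library left out. *Dlat* and *Fh1* had no value at a mean of at least 10 FPKM.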
